A study of Paralichthys olivaceus with 6 samples.

Results

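The genes described here are 5 genes of lipid droplets and fatty acids in the ocular-side skin of Japanese flounder (P. olivaceus), chosen by gene ID from the 22498 genes of the count table. They are CIDEC (GS_002121), a pair of genes that both match PLIN2 (GS_005047 and GS_012001), FABP2 (GS_010525) and AGMO (GS_007694). The names are the study's matches to proteins of other species. The 5 IDs come from the study's table of genes that changed in albino fish, and the PLIN2 pair was taken because its members moved in opposite directions. The albino against normal values of these genes are therefore given as a description, and nothing is concluded from their size or direction.

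The skin came from 3 normally pigmented fish (labelled wild type, PO_con1 to PO_con3) and 3 albino fish (PO_alb1 to PO_alb3). All 6 fish were 5 months old and belonged to 1 full-sib family, so the fish of both groups share their parents. The labels call the albino fish albino under genotype or variation and name no allele or treatment. Each fish gave 1 mRNA library from a piece of ocular-side skin, a bulk tissue, in which fewer cells of a type and less RNA per cell cannot be told apart.

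A lipid droplet is a store of neutral lipid with a protein coat. Perilipins, to which PLIN2 belongs, sit on the droplet surface and control the access of lipases, and CIDEC lets small droplets pass their lipid to larger ones, an activity known best from mammalian fat cells. FABP2 carries fatty acids inside the cells of the mammalian gut, and AGMO, a membrane enzyme that needs tetrahydrobiopterin, cleaves ether lipids. In the skin of fish lipid droplets also occur in xanthophores, the yellow pigment cells, which dissolve carotenoids in them. Zebrafish and other bony fish have a perilipin named Plin6 that coats such droplets. The RefSeq annotation of the flounder lists 1 gene each under the symbols plin2, plin3 and plin6, and since none of its entries is paired with an ID of the count table, which flounder perilipin either PLIN2 match stands for was not determined.

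The libraries held 17905084 to 20025047 counts, and the scaling factors of the trimmed mean of M-values method (TMM) ranged from 0.791 in PO_alb3 to 1.27 in PO_con3. Counts divided by these factors and set to a common depth are called normalized counts below. Among the study's other named genes, the summed normalized count of 4 muscle genes was 12383 to 24938 in normal and 33909 to 48097 in albino skin, and that of 3 keratin genes was 23695 to 40293 and 8356 to 13762. That of 8 melanophore genes was 1172 to 1588 and 72.9 to 151. For 6 genes listed for xanthophores and iridophores (GCH1 genes, SPR and XDH) it was 2094 to 3862 and 12.5 to 20.9. These 6 genes do not separate xanthophores from iridophores. The muscle and the keratin sum each stand mostly for 1 gene. In PO_alb3 DES held 46309 of the muscle sum of 48097, and KRT13 GS_014679 held 8329 of the keratin sum of 8356. These lists move with the comparison of albino and normal fish, their genes were chosen from the same libraries, and their part in the values below was not tested. No gene of fat cells outside the lipid genes below is named in the study's tables, so the fat cell content of the skin could not be read from markers.

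CIDEC was nearly absent from normal skin and low but present in albino skin. By fish number, the reads counted for it were 2, 2 and 1 in the normal libraries and 48, 30 and 16 in the albino libraries. The lowest albino fish, PO_alb3, thus had more reads of the gene than all normal fish together, and the groups did not overlap. Normal fish had a mean normalized count of 1.64 ± 0.724 (SD, n = 3), and the mean of the albino fish was 32.5 ± 13.9 (SD, n = 3). The log2 fold change was 4.27 (SE 0.54), a rank of 2 from the top among the 16260 genes tested. From the 5 reads of the normal and the 94 reads of the albino libraries the ratio, scaled for depth and TMM factor, was 21.3. Its 95% interval for counting error alone ran from 8.83 to 67.2 (exact Clopper-Pearson). The ratio of the variance to the mean of the normalized counts, which is 1 under counting error alone, was 0.320 in normal and 5.93 in albino fish. At this depth no difference among the normal fish was detectable, while the albino fish differed among themselves by more than counting error. Per length the gene remained a weak one even in albino skin, with an RPKM of 1.34 to 4.06, against 0.0831 to 0.165 in normal skin.

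**Figure D1:**
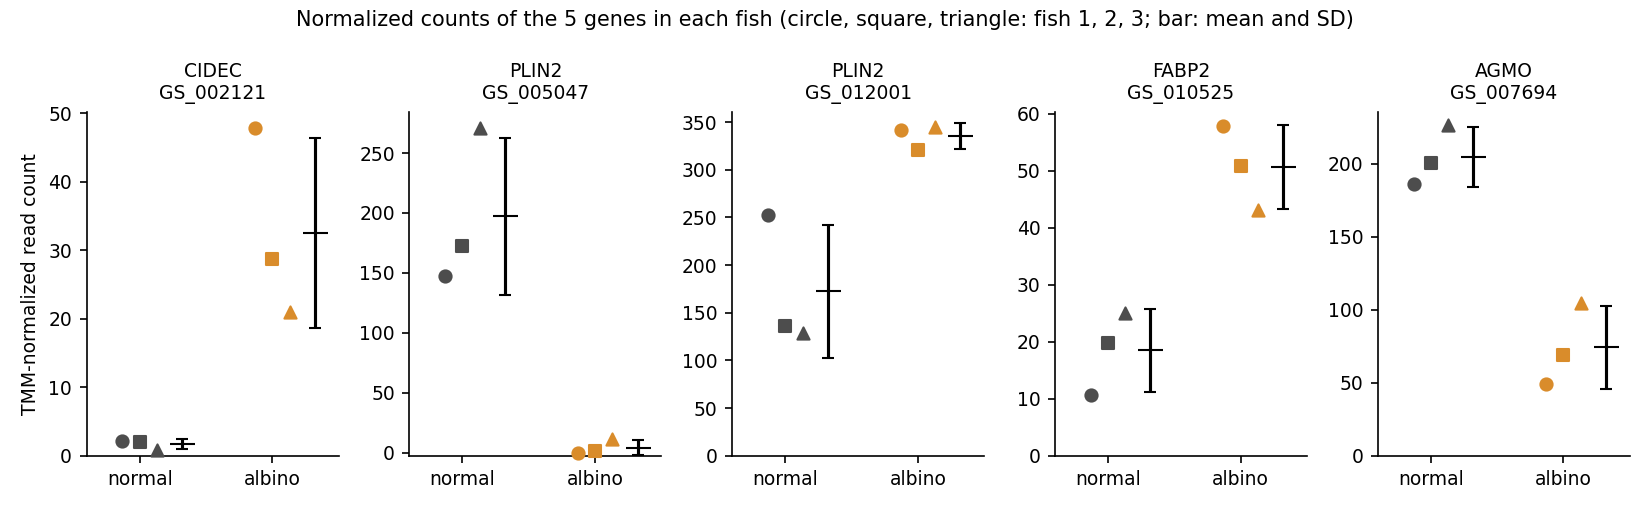
Each panel plots the TMM-normalized read count (vertical axis) of 1 gene in the 3 normal (grey) and 3 albino (orange) fish, with the group mean and SD as bars. CIDEC, PLIN2 GS_012001 and FABP2 lie higher in every albino fish than in every normal fish, and PLIN2 GS_005047 and AGMO lie lower.

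PLIN2 GS_005047 was the opposite of CIDEC, well expressed in normal and nearly absent from albino skin. It had 139, 174 and 336 reads in the normal and 0, 1 and 9 reads in the albino libraries, in the order of the fish numbers. PO_alb3 held 9 of the 10 albino reads, and in the normal group PO_con3 was the highest. Its mean normalized count was 197 ± 65.2 (SD, n = 3) in the normal group, against 4.24 ± 6.53 (SD, n = 3) in the albino group, with a log2 fold change of -5.71 (SE 0.70). The size of this value rests on 1 library, since it was -8.35 without PO_alb3 and -5.08 without PO_alb1. The ratio of normal to albino reads, scaled for depth, was 57.2, and counting error alone put it between 30.9 and 120 (95%, Clopper-Pearson). In normal skin the gene stood at the RPKM percentiles 58.4, 61.4 and 71.9 of all genes of a library, and in albino skin at 7.49, 16.2 and 28.3.

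PLIN2 GS_012001 was present in every fish and higher in the albino group. By fish number, the normalized counts were 253, 136 and 129 in the normal group and 341, 320 and 345 in the albino group. The 3 albino fish lay close together, with a coefficient of variation of 3.98%, while in the normal group (40.4%) PO_con1 stood well above the other fish. The log2 fold change was 0.96 (SE 0.26). It was 1.34 without PO_con1 and 0.80 to 1.00 without any other library. In albino skin the variance-to-mean ratio was 0.531, so after scaling no difference among those 3 fish was detectable beyond counting error. This closeness depends on the low scaling factor of PO_alb3 (0.791). The unscaled reads of the albino fish were 342, 334 and 264, and the RPKM was 16.3, 15.3 and 12.5. In normal skin the variance-to-mean ratio was 28.2.

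The levels of the paralogs can be compared per length, and their ratio within a library does not depend on the scaling of libraries. In normal fish neither paralog was higher throughout. GS_012001 was 2.35 times the per-length level of GS_005047 in PO_con1 (95% counting interval 1.90 to 2.92) and 1.08 times in PO_con2 (0.857 to 1.36), and 0.653 times in PO_con3 (0.538 to 0.791). The interval of PO_con2 includes equality, and the other intervals lie on opposite sides of it. In albino fish GS_012001 was the higher gene in each library, at 458 times in PO_alb2 (81.7 to 18151) and 40.2 times in PO_alb3 (20.9 to 89.0). In PO_alb1 GS_005047 had no read, and GS_012001 was 156 times higher against a floor of 3 counts in that library (lower end of the exact 95% interval 126). Of the reads of both paralogs GS_005047 held 36.9%, 55.9% and 67.7% in PO_con1 to PO_con3. It held 0.299% in PO_alb2 (exact 95% interval 0.00756% to 1.65%) and 3.30% in PO_alb3 (1.52% to 6.17%). Its 0 reads in PO_alb1 allow a share of up to 0.877% by the limit of 3 counts (upper end of the exact 95% interval 1.07%). The log2 ratio of GS_012001 to GS_005047 averaged 0.24 ± 0.93 (SD, n = 3) in normal skin. In albino skin, with PO_alb1 set to the floor of 3 counts, it averaged 7.15 ± 1.76 (SD, n = 3). Since the pair was chosen for this contrast, the difference of 6.91 is a description.

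The sum of both paralogs, which the choice of the pair did not use directly but which comes from the same contrast, overlapped between the groups. The summed RPKM was 14.5, 12.3 and 19.0 in the normal fish, by number, and 16.3, 15.4 and 12.8 in the albino fish. With the TMM factors applied the normal mean was 14.4 ± 2.31 (SD, n = 3) and the albino mean 15.5 ± 0.753 (SD, n = 3). How far reads of one paralog could be counted to the other was not determined, as no sequence of the gene models was at hand.

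**Figure D2:**
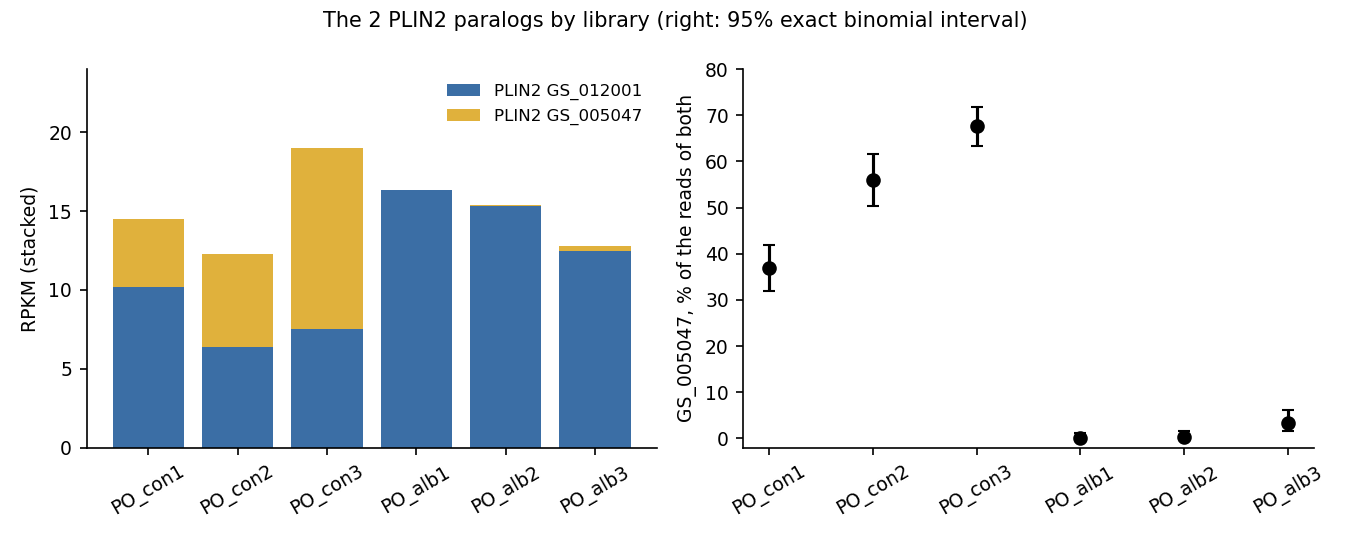
Left, the RPKM (vertical axis) of PLIN2 GS_012001 (blue) and GS_005047 (yellow) stacked for each library. Right, the percent of the reads of both paralogs that fell on GS_005047, with 95% exact binomial intervals, which lies between 36.9% and 67.7% in the 3 normal fish and at 3.30% or less in the 3 albino fish.

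FABP2 had few reads and was higher in albino fish. Its reads numbered 10, 20 and 31 in the normal and 58, 53 and 33 in the albino libraries, and PO_con3 with 31 and PO_alb3 with 33 were separated by scaling more than by reads. After scaling the normalized counts were 10.6, 19.8 and 25.0 against 57.9, 50.8 and 43.1, with no overlap. The log2 fold change was 1.43 (SE 0.33), and 1.27 with no scaling factor. Between the albino fish the spread after scaling was that of counting error (variance-to-mean ratio 1.08), which also depends on the scaling factor of PO_alb3. The RPKM was 1.25 to 4.26 in normal and 4.57 to 8.12 in albino skin.

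AGMO was lower in albino fish, but remained expressed in all of them. Its normalized counts were 186, 200.1 and 227 in the normal and 48.9, 69.0 and 105 in the albino fish, by number. After scaling the normal fish lay close together, with a coefficient of variation of 10.1%, and the albino fish were spread (38.0%), with PO_alb3 highest. This contrast depends on the scaling factors. The unscaled reads were 175, 202 and 281 in normal and 49, 72 and 80 in albino fish. The RPKM was 7.02, 8.85 and 12.4 in normal and 2.20, 3.10 and 3.55 in albino fish. The log2 fold change was -1.48 (SE 0.26), or -1.80 without PO_alb3. The mean RPKM was 9.42 ± 2.72 (SD, n = 3) in the normal group, against 2.95 ± 0.690 (SD, n = 3) in the albino group.

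In edgeR's quasi-likelihood fit over 16260 genes 2 of the 5 genes passed an adjusted p of 0.05, where 1.04% of all genes tested did. They were CIDEC, higher in albino (adjusted p = 0.010, where 0.129% of all genes were called higher), and PLIN2 GS_005047, lower in albino (adjusted p = 0.0091, where 0.91% were called lower). AGMO lay just outside (adjusted p = 0.051), and FABP2 and PLIN2 GS_012001 did not pass (adjusted p = 0.15 and 0.24, edgeR). The study itself had called all of these with DESeq. For FABP2 it also reported qRT-PCR levels similar to the sequencing, measured on RNA of the same samples. None of the 5 genes overlapped between the groups, where 13.2% of all genes tested did not (7.46% lower and 5.73% higher in albino). DESeq2 called all 5, where it called 1.94% of the genes it tested. The same contrast chose the genes, so these counts say nothing further about them. Both calls were lost without PO_con2 (adjusted p = 0.078 for CIDEC and 0.057 for GS_005047, edgeR). The log2 fold changes were then 4.43 and -5.81, and 69 of all genes were called, against 169 with all libraries. AGMO was called without PO_alb3 (adjusted p = 0.026) and PLIN2 GS_012001 without PO_con1 (0.013).

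Whether the 3 genes that were higher in albino skin vary together from fish to fish, as the content of 1 tissue such as fat would make them do, was asked on the deviations of each fish from the mean of its group in log2 CPM, the count relative to the scaled library total. The genes were not chosen on how these deviations run together between genes, although the spread within groups entered the test that chose them. A correlation over the 6 fish with the group means left in would have been set by that choice, and with 3 fish in a group none can be given within a group alone. CIDEC deviated by 0.20, 0.15 and -0.35 in the normal and by 0.61, -0.09 and -0.52 in the albino fish, by number. PLIN2 GS_012001 deviated by 0.62, -0.27 and -0.34 and by 0.03, -0.07 and 0.04, and FABP2 by -0.63, 0.16 and 0.47 and by 0.20, 0.02 and -0.21. PO_con1 thus held the most PLIN2 GS_012001 and the least FABP2 of the normal fish, while PO_alb1 held the most CIDEC and the most FABP2 of the albino fish. The deviations of CIDEC in normal skin stand for 1 or 2 reads each and carry little information.

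No pair of the 3 genes was shown to vary together. CIDEC and PLIN2 GS_012001 had a Pearson's r of 0.30 and a Spearman's rho of 0.30 over the 6 fish (two-sided exact permutation p within groups 0.53 and 0.58, adjusted over the 3 pairs 0.79 and 0.88). CIDEC and FABP2 had an r of -0.05 and a rho of 0.02 (exact permutation p = 0.92 and 1, adjusted 0.92 and 1). PLIN2 GS_012001 and FABP2 had an r of -0.92 and a rho of -0.84 (exact permutation p = 0.083 and 0.17, adjusted 0.25 and 0.50), with the same sign of deviation in 1 of 6 fish. The smallest p that the 36 arrangements within groups can give is 0.028, and the smallest adjusted p for 1 pair alone is 0.083, so 1 pair alone could not pass 0.05 after adjustment. In each pair the 2 fish farthest from the median of the first gene belonged to the same group. They were PO_alb1 and PO_alb3 for both pairs of CIDEC. Without them 1 fish is left in that group and has no deviation, so r would rest on the 3 fish of the other group. It is therefore not given. For PLIN2 GS_012001 and FABP2 the 2 farthest fish were PO_con1 and PO_con3. The r of this pair was -0.45 without PO_con1 alone and -0.89 without PO_con3 alone. It was -0.33 with no scaling factor and -0.25 on log2(RPKM + 1). Of the genes tested, 26.5% had a correlation with CIDEC at least as high as that of PLIN2 GS_012001, and 59.9% one at least as high as that of FABP2. With PLIN2 GS_012001, 97.8% of them had a correlation at least as high as that of FABP2. The sign of the correlation of CIDEC and FABP2 turned with no scaling factor (0.25), on log2(RPKM + 1) (0.43), without PO_con1 (0.47) and without PO_con3 (0.41). A p that misses the threshold does not show that the genes vary independently.

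**Figure D3:**
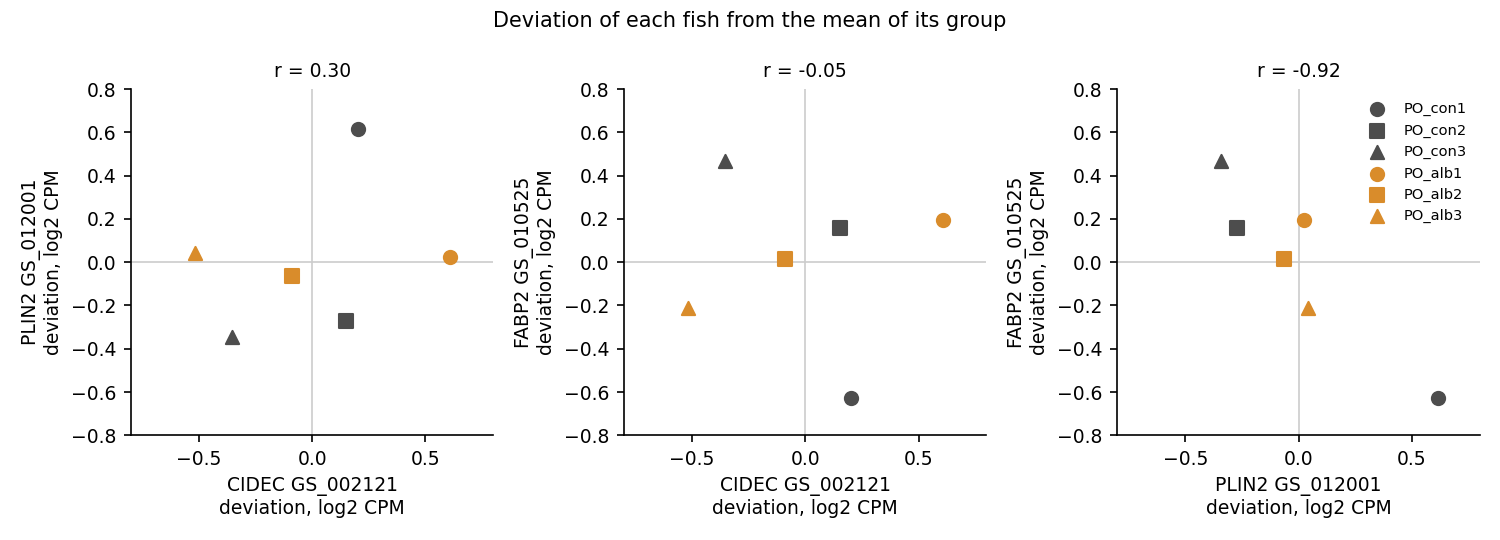
Each panel plots the deviation of a fish from its group mean (log2 CPM) for 1 gene against that of another, with grey points for normal and orange points for albino fish. Pearson's r is 0.30 for CIDEC and PLIN2 GS_012001, -0.05 for CIDEC and FABP2, and -0.92 for PLIN2 GS_012001 and FABP2, the last with PO_con1 and PO_con3 at its ends.

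To see which genes follow each of the 5 most closely, log2 CPM was correlated over the 6 libraries with that of 198 other tested and named genes of the study's table. Those genes were chosen for the same contrast, so that high values are the rule here, and r over 6 libraries is a description. PLIN2 GS_005047 was most like RETSAT, a retinol reductase (r = 0.9965), the melanin enzyme TYR (0.9933) and AGMO (0.9917). With the group means removed these values were 0.98, 0.94 and 0.96. The albino deviations stand for few reads, namely 0, 1 and 9 of PLIN2 GS_005047 and 0, 1 and 3 of TYR. How many of all genes tested reach such values was not determined. AGMO in turn was most like PLIN2 GS_005047, then NCF1, a subunit of the neutrophil oxidase (0.9835), and TYR (0.9819), at 0.93 and 0.94 with the group means removed. In both PLIN2 GS_005047 and AGMO the order of the fish was the same in each group, with PO_con3 and PO_alb3 highest and PO_con1 and PO_alb1 lowest.

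The nearest genes of CIDEC, PLIN2 GS_012001 and FABP2 were others. CIDEC was most like CAMK1G, a calcium/calmodulin-dependent kinase (r = 0.9957 over 6 libraries), LYG, a lysozyme (0.9866), and SOSTDC1, a secreted antagonist of BMP and WNT signals (0.9759), and with the group means removed r was 0.92, 0.87 and 0.52. PLIN2 GS_012001 was most like the glutamate receptor GRM3 (0.9777), the muscle gene MUSTN1 (0.9750) and PSBP2, a toxin-binding protein of pufferfish (0.9357), at 0.93, 0.92 and 0.74 with the group means removed. FABP2 was most like lysozyme C (0.9876), the steroid dehydrogenase HSD17B14 (0.9870) and the carbonic anhydrase CA4 (0.9854), at 0.93, 0.94 and 0.99. No gene was named for more than 1 of these 3, but only 3 of 198 genes were named for each, so this says little. MUSTN1 (adjusted p = 0.066, edgeR) is also in the muscle list, which was chosen from the same libraries. Of that list 1 of 4 genes was called higher, where 0.129% of all genes tested were. The 4 genes had a median log2 fold change of 1.38 and did not overlap between the groups, where 5.73% of all genes tested were higher in albino skin without overlap.

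Of 10 other genes of lipid metabolism named in the study's table, 5 were called lower and 1 was called higher in albino skin, and for 4 the adjusted p was 0.11 to 0.17 (edgeR). Of all genes tested, 0.91% were called lower and 0.129% higher. That table was drawn up from the same libraries, and its counts are no independent evidence. The median log2 fold change of the 10 was -2.02, against 0.01 for all genes tested, and none overlapped between the groups, where 13.2% of all genes tested did not. Some nearly vanished from albino skin, others were lower but present, and others were higher.

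PNPLA2, BDH1 and TTC39B nearly vanished, as PLIN2 GS_005047 did. PNPLA2, the lipase that begins the breakdown of stored triglyceride and acts at the perilipin coat, had 118, 255 and 364 reads in the normal and 3, 3 and 0 reads in the albino libraries. BDH1, a ketone body dehydrogenase with a relative that takes part in making red carotenoids in birds, had a mean normalized count of 466 ± 198 (SD, n = 3) in normal skin, against 4.66 ± 1.47 (SD, n = 3) in albino skin. TTC39B, a gene linked to lipid balance in mammals and to carotenoid colour in birds and fishes, had means of 766 ± 262 (SD, n = 3) and 9.15 ± 5.76 (SD, n = 3) in the same order. The log2 fold changes were -6.64 (SE 0.57), -6.62 (SE 0.44) and -6.45 (SE 0.42). In normal skin PO_con3 was the highest and PO_con1 the lowest fish for each of these genes, as for PLIN2 GS_005047. This was not particular to genes that nearly vanished. It also held for FABP2 and HSD17B14, which were higher in albino skin, and for AGMO, PHOSPHO1 and PLCD3A. It did not hold for AQP7, ALOX15B, CYP2J2, SMPD3, CIDEC or PLIN2 GS_012001. Outside the lipid genes it held for both KRT13 genes, for GCH1 GS_005902 and GS_005903 and for the melanophore gene SLC45A2. It did not hold for KRT18, GCH1 GS_008748 and GS_013228, SPR, XDH or the other melanophore genes. In all of the latter PO_con2 was the lowest normal fish. In the 4 muscle genes PO_con1 was the highest and PO_con3 the lowest fish. The share of all genes tested with either order was not determined. In albino skin PO_alb3 was highest for TTC39B and for PLIN2 GS_005047, but it had no read of PNPLA2, and PO_alb2 was highest for BDH1.

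ALOX15B, a lipoxygenase of arachidonic acid, was uniform in normal skin after scaling, with normalized counts of 562, 549 and 536. The RPKM of the same fish was 13.2, 15.1 and 18.2. In albino skin ALOX15B had normalized counts of 39.9, 57.5 and 37.9, and the log2 fold change was -3.59 (SE 0.19). SMPD3, a sphingomyelinase, had a log2 fold change of -2.20 (SE 0.35), and its call (adjusted p = 0.034, edgeR) was lost without any 1 of the 6 libraries (0.061 to 0.17). PLCD3A, a phospholipase C that cleaves a phosphoinositide of the membrane, and PHOSPHO1, a phosphatase of phosphocholine known from mineralizing tissue, had log2 fold changes of -1.83 and -0.98 and did not pass (adjusted p = 0.17 and 0.11, edgeR).

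AQP7, the channel through which mammalian fat cells release glycerol, was the 1 gene of the 10 called higher. Its normalized counts were 93.6, 99.1 and 83.9 in normal and 172, 219 and 200.0 in albino fish, and the log2 fold change was 1.09 (SE 0.16). The call (adjusted p = 0.024, edgeR) was lost without any 1 of the 6 libraries (0.050 to 0.11, with the lowest just above the threshold), and with no scaling factor (0.27), while the log2 fold change stayed between 0.96 and 1.19. HSD17B14 and the arachidonate epoxygenase CYP2J2 had log2 fold changes of 1.20 (SE 0.28) and 1.01 (SE 0.22) and did not pass (adjusted p = 0.15 and 0.11, edgeR).

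**Figure D4:**
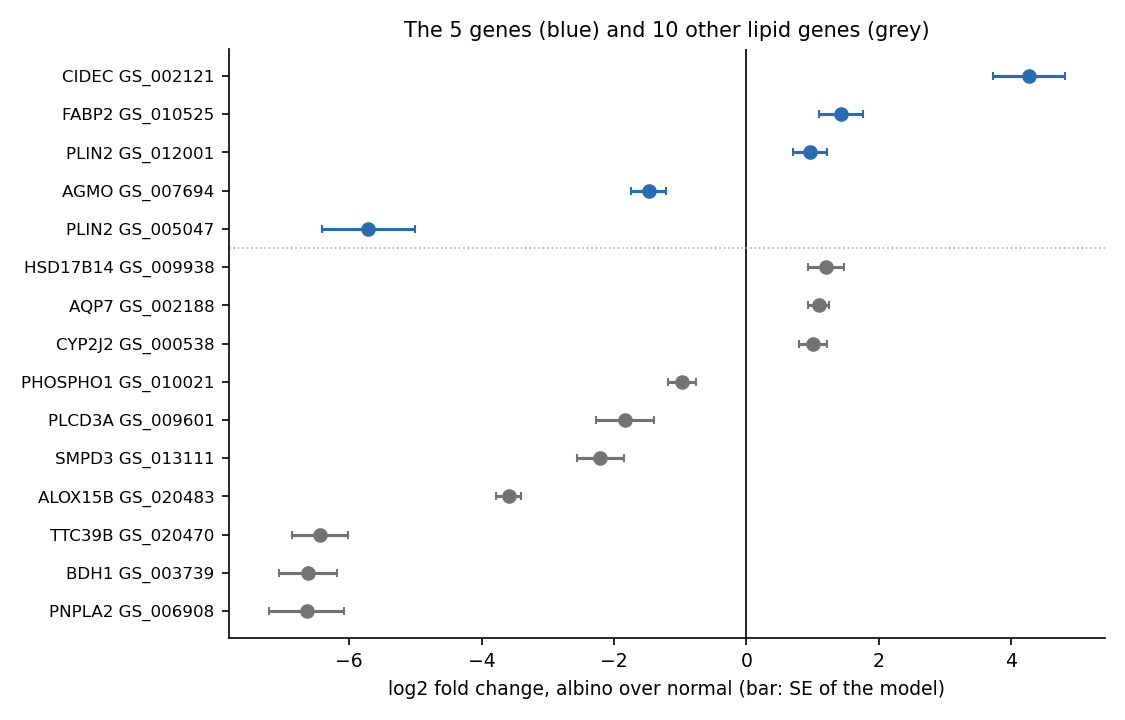
The log2 fold change of albino over normal fish (horizontal axis) with the SE of the model is drawn for the 5 genes (blue) and the 10 other lipid genes (grey). PNPLA2, BDH1 and TTC39B lie between -6.64 and -6.45 beside PLIN2 GS_005047 at -5.71, and CIDEC at 4.27 lies apart from the other genes above 0, which reach 1.43.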

How the data were processed

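The mRNA libraries of ocular-side skin from 3 albino and 3 normal fish were used. The authors aligned reads with TopHat2 2.0.9 (index by Bowtie2 2.0.6), and assembled transcripts with Cufflinks 2.1.1. From HTSeq they deposited read counts with no scaling, and with them RPKM, for 22498 genes. The deposited RPKM could be recomputed from the counts, the library total and a gene length that is a multiple of 3, taken as coding length. The strand setting of the counting is not given in the sources used here.

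Counts were fitted in R 4.3.3 with edgeR 4.0.16 (filterByExpr, TMM, quasi-likelihood test, Benjamini-Hochberg over 16260 genes, threshold 0.05), after tests on simulated data. The SE is the log2 fold change divided by the root of F. Log2 CPM used a prior count of 2. Alternatives used DESeq2 1.42.0, limma 3.58.1, other scaling and filters, a replicate block and fewer libraries. Figures were drawn with matplotlib 3.10.9. Fish are the replicates, and 3 against 3 cannot give an exact p under 0.1 for 1 gene.

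The members and lists were chosen with earlier results of these data known. Named are the 5 genes, 10 other lipid genes of the study's table and, for each of the 5, the 3 named genes most like it. None of the gene IDs occurs in the RefSeq table, so no sequence or position is given.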

Additional observations from a re-analysis of the deposited data

How the results depend on the processing

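The direction of the log2 fold change was kept in all 14 alternatives for each of the 5 genes and the 10 other lipid genes. The number of all genes called (169) was 106 with no scaling factor, 96 with limma-trend on log2(RPKM + 1), 356 with DESeq2 and 69 to 152 with 1 library left out. The 2 calls among the 5 genes became 5 with DESeq2 and 0 to 3 with 1 library left out, and the 6 calls among the other lipid genes became 10 with DESeq2 and 4 with any 1 library left out. Without the libraries of the highest and the lowest scaling factor (PO_con3 and PO_alb3), an alternative chosen after seeing the data, 68 genes and 1 of the 5 were called (CIDEC was lost, adjusted p = 0.065, edgeR). AGMO was also called with no scaling factor, with no filter on low counts and with DESeq2 (adjusted p = 0.050, 0.034 and 0.00018). On log2(RPKM + 1), where the pseudocount of 1 narrows low values, the log2 fold change of CIDEC was 1.60 and that of PLIN2 GS_005047 was -2.80. The log2 ratio of the PLIN2 paralogs differed between groups by 6.07 to 7.82 in 8 alternatives. The correlation of CIDEC and FABP2 was 0.25 with no scaling factor, 0.43 on log2(RPKM + 1) and -0.51 to 0.47 with 1 library left out, and the cause was not tested. That of CIDEC and PLIN2 GS_012001 was 0.05 to 0.51, and that of PLIN2 GS_012001 and FABP2 was -0.97 to -0.25.

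The replicate numbers were not taken as pairs, since same-numbered normal and albino fish deviated from their group means with correlations of -0.17, 0.18 and -0.44 across genes. With the replicate number as a block 57 genes were called, CIDEC and PLIN2 GS_005047 among them (adjusted p = 0.038 and 0.037, edgeR). At 5 reads of CIDEC in normal skin and 10 of PLIN2 GS_005047 in albino skin, depth limits how far those low levels can be told from 0 or from each other.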
